A study of Mus musculus with 13 samples.

Results

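The Rhox genes are a family of reproductive homeobox genes that lie side by side on the mouse X chromosome. Members were taken as every row of the count table whose Ensembl identifier carries a symbol starting with Rhox in GENCODE vM21 (genome build GRCm38). That annotation holds 42 Rhox genes, 34 protein-coding genes and 8 pseudogenes, between positions 37213804 and 38306028 of chromosome X, a span of 1.09 Mb. Of these, 33 have a row among the 38377 rows of the table, 28 coding genes and 5 pseudogenes, and each of the 33 had at least 1 count in at least 1 library. The other 9 (Rhox3a, Rhox3a2, Rhox3c, Rhox3d-ps, Rhox4a, Rhox4c, Rhox11, Rhox11-ps1 and Rhox11-ps3) are not analysed here. Only 18 members reached 10 counts in any library, and these are described with their values.

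Rhox proteins are homeodomain transcription factors, and most of the genes are known for expression in testis, ovary, epididymis and placenta. By number the family is divided into an alpha subcluster (Rhox1 to Rhox4, with Rhox2, Rhox3 and Rhox4 repeated many times in tandem), a beta subcluster (Rhox5 to Rhox9) and a gamma subcluster (Rhox10 to Rhox13). In the embryo proper the cluster is known to become methylated and silent after implantation, and extraembryonic tissues express some of its members. Xist is the noncoding RNA that silences an X chromosome in female cells, and in extraembryonic endoderm the silenced X is the paternal copy.

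RNA was sequenced from 13 libraries of female mouse cells in 6 groups. XEN cells, stem cells of the extraembryonic endoderm grown with serum, were wild type (2 libraries), carried a deletion of Xist on the paternal X (called dXist here, 3 libraries), were wild type and treated with 20 uM 5-aza-2'-deoxycytidine (2 libraries), or carried the paternal deletion and were treated likewise (2 libraries). 5-aza-2'-deoxycytidine (5-aza-dC) is a cytidine analogue that traps DNA methyltransferases and lowers DNA methylation. EpiSC, epiblast stem cells kept with FGF2 and Activin on matrigel, comprised the wild type (2 libraries) and cells heterozygous for an Xist deletion (2 libraries). The labels do not say whether libraries of a group came from separate cultures or clones, so p-values reflect the spread among these libraries alone, which may be technical.

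Library totals ran from 5848454 to 35247432 counts, and the treated wild-type XEN libraries had the lowest totals. Mitochondrial rRNA with Rn7sk made up 10.4% to 13.5% of counts in treated wild-type XEN libraries 1 and 2, EpiSC wild-type library 2 and EpiSC dXist library 2, against 0.0152% to 0.279% in the other 9. The former 4 are called total-like and the latter polyA-like from these shares, and library type and treatment cannot be told apart among the wild-type XEN libraries. XEN dXist library 3 stood apart from its group: its log2 CPM correlated at r = 0.926 and 0.916 across genes with libraries 1 and 2, which correlated with each other at 0.984. Xist was at 1551 and 1587 CPM (counts scaled to library size with TMM factors) in wild-type XEN libraries and 1.16 to 4.79 CPM in untreated dXist libraries, but at 14.6 and 242 CPM in the libraries labelled treated dXist 1 and 2, so the latter goes partly against its label. Summed over 10 genes each, XEN markers were at 24380 to 76770 CPM in XEN and 717 to 969 CPM in EpiSC libraries, and EpiSC markers were at 46.0 to 215 CPM and 829 to 1325 CPM.

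Many Rhox genes are near-copies of each other, which bears on how reads can be assigned to them, so coding sequences of the copies that the results turn on are shown first. The 8 coding Rhox2 copies (Rhox2a to Rhox2h) each have 573 coding bases, of which 55 positions vary, and pairs of copies are 93.7% to 99.7% identical. Coding bases 175 to 264, counted from the start codon in GENCODE vM21, hold 14 of the varying positions. In the lines below, capitals mark bases that differ from Rhox2a, and Rhox2b and Rhox2e are the same as Rhox2a over this stretch.
Rhox2a: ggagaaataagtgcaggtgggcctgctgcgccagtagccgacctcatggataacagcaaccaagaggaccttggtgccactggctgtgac
Rhox2c: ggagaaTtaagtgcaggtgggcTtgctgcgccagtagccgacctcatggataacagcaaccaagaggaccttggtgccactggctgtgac
Rhox2d: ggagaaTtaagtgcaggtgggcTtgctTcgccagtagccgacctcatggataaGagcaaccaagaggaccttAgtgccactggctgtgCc
Rhox2f: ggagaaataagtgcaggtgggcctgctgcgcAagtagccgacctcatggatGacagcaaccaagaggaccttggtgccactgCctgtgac
Rhox2g: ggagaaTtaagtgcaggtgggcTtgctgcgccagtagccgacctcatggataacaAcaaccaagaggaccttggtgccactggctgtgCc
Rhox2h: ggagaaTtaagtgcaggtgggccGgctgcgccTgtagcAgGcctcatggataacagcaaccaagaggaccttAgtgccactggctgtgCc

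Rhox6 and Rhox9, both first described as placenta-specific homeobox genes, are the other close pair, with 681 coding bases each and 90.9% identity. The stretch from coding base 373 to 462 has 22 differences between them, in capitals here.
Rhox6: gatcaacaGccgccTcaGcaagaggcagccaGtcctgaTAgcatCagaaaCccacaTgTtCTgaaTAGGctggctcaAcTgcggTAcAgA
Rhox9: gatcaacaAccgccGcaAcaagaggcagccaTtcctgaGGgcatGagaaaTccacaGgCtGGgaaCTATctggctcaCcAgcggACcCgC

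The members therefore differ in how surely a read belongs to them. Among words of 50 bases in its annotated transcripts, Rhox1 and Rhox5 share none with any other gene, Rhox9 has 93.7% and Rhox6 83.5% of words to itself. Rhox2f has 40.4%, Rhox2a 8.9% and Rhox2e 0.0%. The sources used here do not say how reads that fit several genes were counted, so the split of reads among Rhox2 copies is uncertain, whereas values for Rhox5 and Rhox1 do not depend on such a split.

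Because the treatment acts on DNA methylation, which in mammals sits at CG pairs, the start regions of 2 neighbouring members are shown with CG in capitals. Both windows are from RefSeq on GRCm38.p6 and run from 250 bases before to 50 bases after the annotated start. Rhox1 (window chrX:37222209-37222508, minus strand) has 0 CG pairs and Rhox2a (chrX:37244742-37245041, plus strand) has 8.
Rhox1: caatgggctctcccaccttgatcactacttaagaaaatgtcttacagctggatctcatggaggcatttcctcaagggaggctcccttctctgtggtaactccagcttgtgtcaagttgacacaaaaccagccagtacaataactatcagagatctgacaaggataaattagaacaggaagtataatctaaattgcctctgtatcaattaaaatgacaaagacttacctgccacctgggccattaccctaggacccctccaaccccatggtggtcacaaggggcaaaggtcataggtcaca
Rhox2a: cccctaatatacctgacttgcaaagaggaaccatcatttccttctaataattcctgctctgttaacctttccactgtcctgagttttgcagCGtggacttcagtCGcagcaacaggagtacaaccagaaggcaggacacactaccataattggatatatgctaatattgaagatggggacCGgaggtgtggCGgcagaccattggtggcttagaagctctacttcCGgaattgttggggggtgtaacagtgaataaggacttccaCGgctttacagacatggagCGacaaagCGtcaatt

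Windows were matched for 28 annotated members, of which 22 have a row in the counts. Their median of 7 CG pairs per window (lowest 0, highest 12) equalled the median of 7 over all 32851 windows. For 25 of the 28 the RefSeq start lies within 500 bases of the GENCODE start used elsewhere here, with a median of 8 CG pairs. For Rhox3e and Rhox3c it lies 4956 and 11283 bases away and for Rhox5 50234 bases away, so the Rhox5 window is not at the start from which distances are given. The letters CG were looked for on 1 strand, since they read the same on both. Rhox2f, Rhox6 and Rhox9 have no window in the table.

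Summed over all 33 members, Rhox RNA was lowest in EpiSC and highest in 2 of the XEN libraries that carry the Xist deletion. In wild-type XEN libraries the sum was 10.7 and 9.41 CPM (320 and 295 counts). In dXist libraries it was 15.9, 1.72 and 150 CPM (496, 46 and 4427 counts), so the dXist libraries lay both below and above the wild type. Treated wild-type libraries had 38.2 and 37.9 CPM, from only 230 and 352 counts. Treated dXist libraries had 25.1 and 98.1 CPM (409 and 2827 counts). EpiSC were lowest, with 2.51 and 1.60 CPM in wild-type cells and 1.03 and 0.737 CPM in dXist. Every XEN library except dXist library 2 therefore lay above every EpiSC library. In such bulk RNA, fewer expressing cells and less RNA per cell cannot be told apart.

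**Figure D1:**
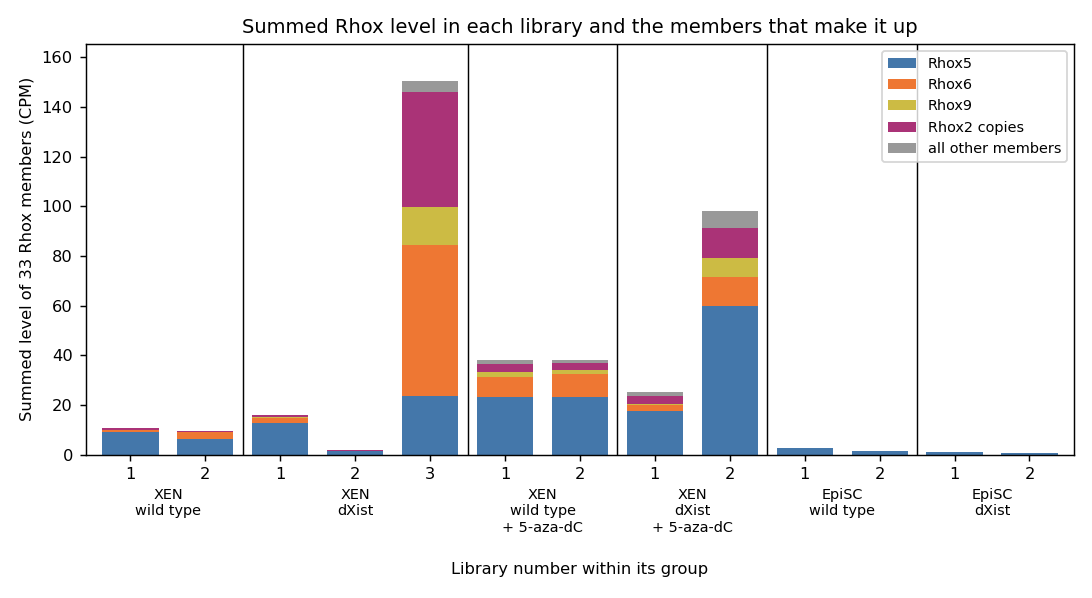
Summed level of the 33 Rhox members in each library in CPM (bar height, axis from 0), stacked by Rhox5, Rhox6, Rhox9, the Rhox2 copies and all other members; the number under each bar is the library within its group. XEN dXist library 3 reaches 150 CPM with 15.7% of its Rhox counts from Rhox5, and treated dXist library 2 reaches 98.1 CPM with 60.9% from Rhox5.

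The make-up of the sum differed as well. Rhox5 supplied 86.6% and 65.4% of Rhox counts in wild-type XEN libraries, 80.0% and 84.8% in dXist libraries 1 and 2, 60.9% to 69.2% in the 4 treated libraries and at least 81.3% in EpiSC. In XEN dXist library 3 it supplied 15.7%. Members other than Rhox5 summed to 127 CPM there, to 38.4 CPM in treated dXist library 2 and to at most 15.0 CPM in every other library.

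**Figure D2:**
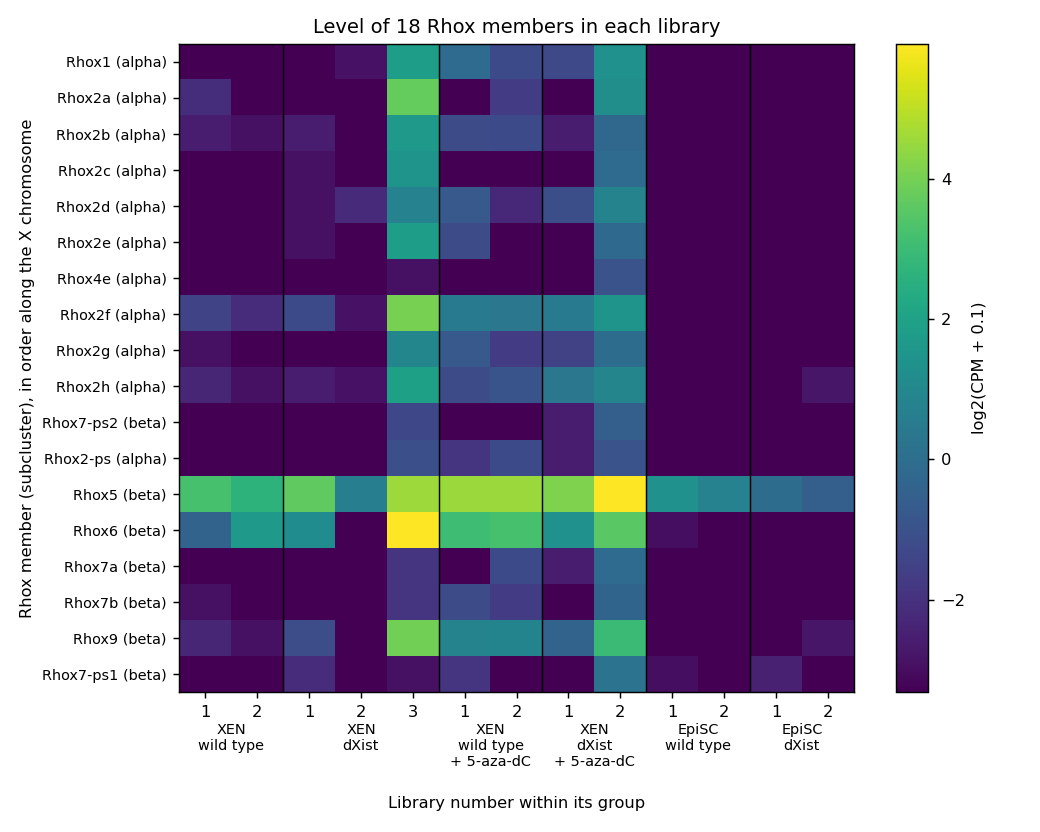
Level of the 18 members with at least 10 counts in any library, as log2(CPM + 0.1) (colour), in order along the X chromosome (rows) and by library within its group (columns). XEN dXist library 3 and treated dXist library 2 are bright over most rows, Rhox5 is the brightest row in most other XEN libraries, and EpiSC columns are dark except for Rhox5.

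Rhox5 (ENSMUSG00000095180, chromosome X, 37804842 to 37808876, plus strand), the founding member also known as Pem and known from Sertoli cells, epididymis and placenta, was the only member with 10 counts or more in all 13 libraries. Its level was 9.28 and 6.16 CPM in untreated wild-type XEN (7.72 ± 2.21, SD, n = 2) and 12.7, 1.46 and 23.6 CPM in dXist libraries (12.6 ± 11.1, n = 3). It was 23.3 and 23.1 CPM in treated wild-type libraries (23.2 ± 0.0910, n = 2) and 17.4 and 59.8 CPM in treated dXist libraries (38.6 ± 30.0, n = 2). The 4 treated libraries all lay above both untreated wild-type libraries, while untreated dXist libraries spanned a range from below the wild type to the level of the treated wild type. In EpiSC it was 2.46 and 1.60 CPM in the wild type (2.03 ± 0.607, n = 2) and 0.870 and 0.599 CPM in dXist (0.734 ± 0.192, n = 2). By group mean the order was treated dXist, treated wild type, dXist and wild type XEN, then wild-type and dXist EpiSC. In that order each neighbouring pair of XEN groups overlapped, wild-type XEN and wild-type EpiSC libraries did not, and the EpiSC groups did not.

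Rhox6 (ENSMUSG00000006200, 37826910 to 37829857, plus strand) lies just beside Rhox5. Its level was 0.670 and 3.03 CPM in untreated wild-type XEN, 2.15, 0 and 60.8 CPM in dXist libraries, 8.14 and 9.25 CPM in treated wild-type libraries and 2.45 and 11.7 CPM in treated dXist libraries. The value in dXist library 3 was 32.9 times the wild-type mean and lay above that of every other library. In dXist library 2 Rhox6 had 0 counts, which allows up to 0.112 CPM (3 counts, counting error only). EpiSC held 1 count of Rhox6 in all 4 libraries together, at 0.0282 CPM in wild-type library 1.

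Rhox9 (ENSMUSG00000068048, 37899097 to 37901770, minus strand) was high in the same libraries. It was at 0.101 and 0.0319 CPM in untreated wild-type XEN and at 0.353, 0 and 15.4 CPM in dXist libraries. Treated wild-type libraries had 1.66 and 1.72 CPM and treated dXist libraries 0.675 and 7.74 CPM. All 4 treated libraries were above both untreated wild-type libraries, whose values rest on 4 counts in all, and dXist library 3 was above every treated library. In EpiSC it had 1 count, in dXist library 2.

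**Figure D3:**
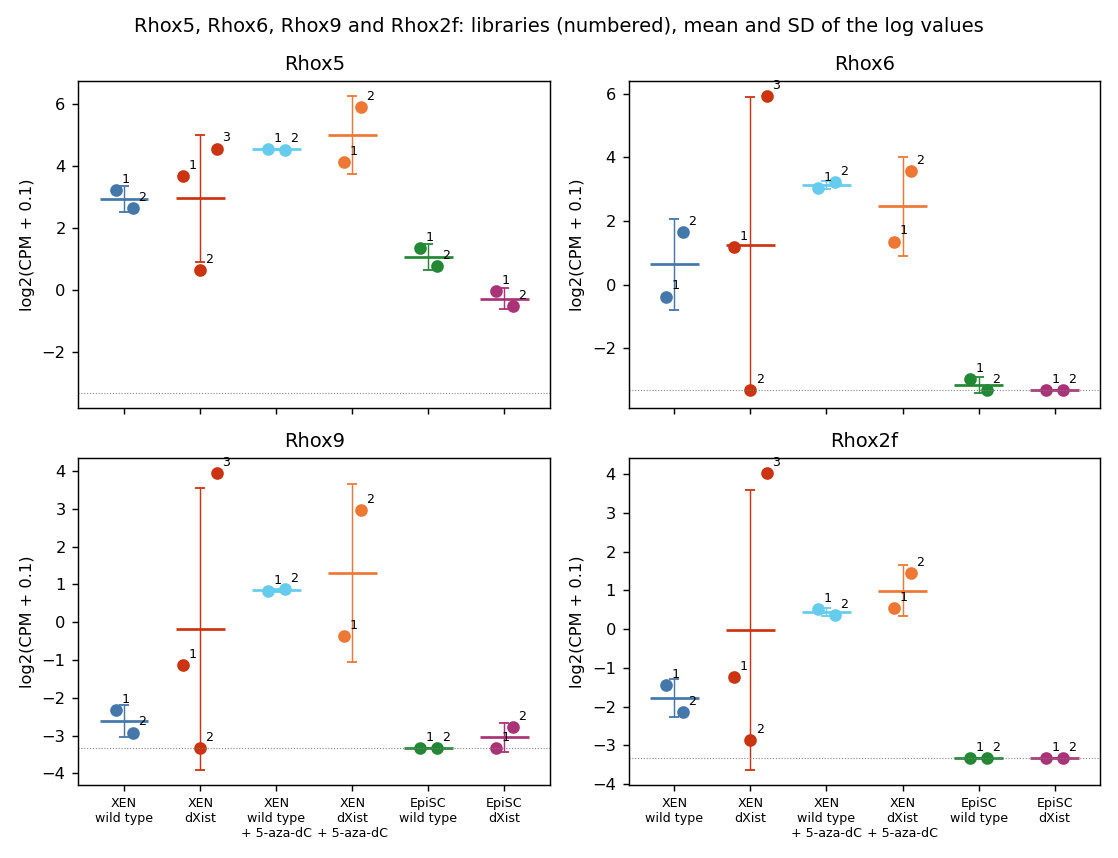
Levels of Rhox5, Rhox6, Rhox9 and Rhox2f as log2(CPM + 0.1) (vertical axes) in the 6 groups; points are libraries with their number, horizontal lines the group mean and bars 1 SD of the log values, and the dotted line marks 0 CPM. For Rhox6, Rhox9 and Rhox2f the dXist libraries of XEN spread from near the dotted line to the highest point of the panel.

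The Rhox2 copies, all 9 of which reached 10 counts in some library, summed to 0.603 and 0.191 CPM in untreated wild-type XEN and to 0.545, 0.187 and 46.1 CPM in dXist libraries. They summed to 3.49 and 2.80 CPM in treated wild-type libraries and to 3.25 and 12 CPM in treated dXist libraries. EpiSC libraries had 1 Rhox2 count in all. The copies thus had little RNA in any untreated XEN library but dXist library 3, where the sum rests on 1359 counts.

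Rhox2f (ENSMUSG00000095741, 37571405 to 37576163, plus strand) had the highest level per kb of exon among the copies in dXist library 3. It was at 0.268 and 0.128 CPM in untreated wild-type XEN, 0.321, 0.0374 and 16.3 CPM in dXist libraries, 1.33 and 1.18 CPM in treated wild-type libraries and 1.35 and 2.64 CPM in treated dXist libraries. The treated libraries lay above both wild-type libraries and dXist libraries 1 and 2, and below dXist library 3, which was 82.2 times the wild-type mean. Rhox2a reached 13.1 CPM in dXist library 3 and 2.26 CPM in treated dXist library 2, and no more than 0.215 CPM in any other library. Rhox2h reached 3.70 and 1.77 CPM in the same libraries and 1.17 CPM in treated dXist library 1. The highest levels of Rhox2b, Rhox2c, Rhox2e and Rhox2g were 3.09, 2.65, 3.53 and 1.80 CPM, each in dXist library 3. For Rhox2d the levels in dXist library 3 and treated dXist library 2 were close, 1.60 and 1.67 CPM. The copies share sequence, as the stretch printed above shows, so these are levels of the reads assigned to each copy.

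Rhox1 (ENSMUSG00000071773, 37213804 to 37222258, minus strand), the first gene of the cluster and free of shared words, had 0 counts in both wild-type XEN libraries and in dXist library 1. It had 0.0374 CPM (1 count) in dXist library 2 and 3.50 CPM in dXist library 3. Treated wild-type libraries had 0.831 and 0.323 CPM and treated dXist libraries 0.307 and 2.46 CPM. All 4 treated libraries and dXist library 3 therefore lay above every other library. Against 3 counts over both wild-type libraries, the level was at least 71.3-fold higher in dXist library 3, at least 50.3-fold higher in treated dXist library 2 and at least 11.8-fold higher for the mean of the treated wild-type libraries. These bounds allow for counting error in the untreated wild type alone, and the treated wild-type mean rests on 5 and 3 counts.

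The remaining members with 10 counts or more were highest in treated dXist library 2, at 1.04 CPM for the pseudogene Rhox7-ps1, 0.833 CPM for Rhox7a, 0.694 CPM for Rhox7b, 0.590 CPM for Rhox7-ps2, and 0.417 CPM for both Rhox4e and Rhox2-ps. In dXist library 3 their levels were 0.0340 to 0.374 CPM. The other 15 members had at most 7 counts in any library. They comprise all 5 Rhox3 genes with a row (at most 2 counts), the other 5 Rhox4 genes, Rhox8, known from Sertoli and granulosa cells, and all 4 gamma members with a row, among them Rhox10 and Rhox13, known from male germ cells. By subcluster, 11 of 21 alpha, 7 of 8 beta and 0 of 4 gamma members with a row reached 10 counts.

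Per kilobase of exon, the scale on which genes can be set side by side, the order of levels changed between libraries. In wild-type XEN libraries Rhox5 led with 12.3 and 8.16 CPM per kb, against 0.664 and 3.0 for Rhox6 and at most 0.336 for Rhox2f. In dXist library 3 Rhox6 led with 60.2 CPM per kb, followed by Rhox5 with 31.3, Rhox2f with 20.4, Rhox2a with 15.6 and Rhox9 with 6.17. In treated dXist library 2 Rhox5 led with 79.3, followed by Rhox6 with 11.6, Rhox2f with 3.30, Rhox9 with 3.11 and Rhox1 with 2.79.

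Of the 18 members, 10 were highest in XEN dXist library 3 and 8 in treated dXist library 2. Among all 22134 genes with at least 10 counts in a library, 5.84% and 6.54% were highest in these libraries, and among 765 such X-linked genes outside the family 7.71% and 10.9%. All 18 members reach the count minimum in treated dXist library 2, so these shares are given as a description. In 15 of the 18, all but Rhox7a, Rhox7b and Rhox7-ps1, both of these libraries lay above each of the other 11. These libraries were picked for their Rhox levels and no share over all genes was taken, so this too is a description. For Rhox4e it rests on 1 count in dXist library 3. For Rhox2-ps that library was at 0.374 CPM, against 0.323 CPM in treated wild-type library 2.

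The comparison of untreated dXist with wild-type XEN cells asks whether losing paternal Xist alters Rhox RNA. No member passed the test (edgeR quasi-likelihood test, Benjamini-Hochberg adjusted p under 0.05 over 18393 genes), of 14 members with enough counts to be tested. Among all genes tested, 0.0217% passed. The smallest adjusted p was 0.413, for Rhox2d. At an unadjusted p under 0.05 there were 4 of the 14 (Rhox1, Rhox2d, Rhox2f and Rhox9), against 10.7% of all genes.

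Fitted log2 differences, dXist minus wild type, were 0.71 (SE 0.91, edgeR adjusted p = 0.813) for Rhox5, 3.51 (SE 2.08, adjusted p = 0.569) for Rhox6, 6.23 (SE 2.54, adjusted p = 0.432) for Rhox9 and 4.80 (SE 2.05, adjusted p = 0.455) for Rhox2f. The groups overlapped for all 4. They did not for Rhox2d alone, with 1 and 3 counts in dXist libraries 1 and 2 and 0 in the wild type, where 13.6% of genes were higher without overlap. Each value rested on dXist library 3: without it the differences were -0.15 (SE 0.89) for Rhox5, -0.82 (SE 1.46) for Rhox6, -0.14 (SE 1.02) for Rhox2f and 1.36 (SE 1.63) for Rhox9, and still 0 of 8 tested members passed, against 2.87% of genes. With DESeq2, Rhox1 passed (log2 difference 7.62, SE 2.27, adjusted p = 0.0389), where 0.989% of genes passed as higher. With no filter on low counts, 9 members passed, all higher in dXist, where 0.849% of genes passed as higher. In that group dXist libraries 1 and 2 have 0 and 1 count of Rhox1, and library 3 has 103.

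The treated and untreated wild-type XEN cells show how the genes behave under a drug that lowers DNA methylation. The wild-type libraries serve here and in the comparison above. Here the groups did not overlap for 11 of the 14 tested members, all higher in treated libraries, where 28.1% of all genes were higher without overlap. Of these, Rhox5 had 140 and 215 counts in the treated libraries and Rhox6 49 and 86. Others rest on few counts, treated against untreated: Rhox2b on 2 and 3 against 2 and 1, Rhox2h on 2 and 4 against 3 and 1. Rhox7b had 2 and 2 against 1 and 0. Rhox2b, Rhox2d, Rhox2f, Rhox2g and Rhox2h are copies among which the split of reads is uncertain. With the dXist libraries left out of the fit, 4 members had enough counts to be tested, so the 11 of 14 are given as a description. No member passed edgeR's adjusted threshold, which 0.582% of genes passed, and at an unadjusted p under 0.05 there were 0 members (12.4% of genes); DESeq2 called 0 as well (3.44% of genes). The log2 differences, treated minus untreated, were 1.67 (SE 1.0, edgeR adjusted p = 0.537) for Rhox5, 2.30 (SE 2.07, adjusted p = 0.697) for Rhox6, 4.66 (SE 2.51, adjusted p = 0.492) for Rhox9 and 2.72 (SE 2.03, adjusted p = 0.627) for Rhox2f. As ratios of group means, Rhox5 was 3.0-fold, Rhox6 4.70-fold and Rhox2f 6.35-fold higher in treated cells.

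The spread in that test is shared with the untreated and treated dXist libraries. When only the 4 wild-type libraries were fitted, Rhox5 passed (log2 difference 1.71, SE 0.29, edgeR adjusted p = 0.0416) and so did Rhox9 (4.68, SE 0.85, adjusted p = 0.0458), both higher in treated cells, of 4 members tested, where 4.2% of genes passed as higher. With no filter on low counts 2 members passed (Rhox1 and Rhox9), both higher, as did 1.45% of genes. Over all settings tried, the adjusted p ranged from 0.0416 to 1.0 for Rhox5 and from 0.00455 to 1.0 for Rhox9. Both treated libraries differ from both untreated ones in library type, as given above, and in depth. They correlated with each other at r = 0.992 across genes, against 0.892 to 0.984 for pairs within the other groups. The small SEs of the fit of 4 libraries thus rest in part on a pair with little spread. Fitting the 13 libraries together, with a term for library type, gave differences of 2.17 (SE 1.35, edgeR adjusted p = 1.0) for Rhox5 and 2.15 (SE 12.8, adjusted p = 1.0) for Rhox9. This fit uses the EpiSC libraries to estimate the effect of type. They hold 1 count of Rhox9 in all, so its value there cannot show an effect of type.

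In dXist cells the same treatment gave no member whose groups were apart: all 18 overlapped, where 23.9% of genes were higher and 18.3% lower without overlap. No member passed edgeR's threshold, which 0.0761% of genes passed, and there were 0 at an unadjusted p under 0.05 (26.8% of genes) and 0 with DESeq2. The log2 differences, treated minus untreated, were 1.48 (SE 0.87, edgeR adjusted p = 0.295) for Rhox5, -1.71 (SE 1.89, adjusted p = 0.579) for Rhox6 and -0.45 (SE 1.81, adjusted p = 0.892) for Rhox9. Leaving out untreated library 3 turned the differences of Rhox6 and Rhox9 positive, to 2.62 (SE 1.51, adjusted p = 0.267) for Rhox6 and 4.42 (SE 1.52, adjusted p = 0.105) for Rhox9, and gave 2.35 (SE 0.93, adjusted p = 0.137) for Rhox5. Leaving out treated library 2, whose Xist level goes against its label, reduced the Rhox5 difference to 0.23 (SE 1.08, adjusted p = 0.894). This comparison and the one of dXist with wild type share the untreated dXist libraries.

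Treated and untreated dXist libraries also share numbers in the labels, which may or may not stand for lines. Under number 1 the Rhox sum was 15.9 CPM untreated and 25.1 CPM treated, and Rhox5 was 12.7 and 17.4 CPM. Under number 2 the sum was 1.72 CPM untreated and 98.1 CPM treated, and Rhox5 was 1.46 and 59.8 CPM. Library 3, with 150 CPM untreated, has no treated library of its number.

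Whether the response to treatment differed by genotype was tested as an interaction. No member passed (edgeR, 14 tested, smallest adjusted p 0.669 for Rhox1), where 0.245% of genes did, and there were 0 at an unadjusted p under 0.05 (8.0% of genes) and 0 with DESeq2. For Rhox5 the difference of the log2 responses, dXist minus wild type, was -0.19 (SE 1.32, adjusted p = 0.985). With no filter on low counts 2 members passed with a lower response in dXist (Rhox6 and Rhox9), as did 0.415% of genes, and for Rhox6 the sign turned without dXist library 3 (0.31).

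In EpiSC, Rhox5 was the only member with enough counts for a test. Its groups did not overlap, with wild-type libraries at 2.46 and 1.60 CPM above dXist libraries at 0.870 and 0.599 CPM, and 22.3% of all genes were lower in dXist without overlap. The log2 difference, dXist minus wild type, was -1.43 (SE 0.53, unadjusted p = 0.0442, edgeR adjusted p = 0.475), and no gene at all passed the adjusted threshold (0.0% of 17132), while 10.2% had an unadjusted p under 0.05; DESeq2 did not call Rhox5 either. Library 1 and library 2 differ in library type in both EpiSC groups, so a replicate block is also a block on type: with it, the difference was -1.43 (SE 0.46, adjusted p = 0.0230), where 6.53% of genes passed as lower. Within the polyA-like libraries Rhox5 was at 2.46 and 0.870 CPM, and within the total-like ones at 1.60 and 0.599 CPM. The EpiSC groups also differed in 8 fibroblast markers, which summed to 801 and 674 CPM in wild-type and 228 and 165 CPM in dXist libraries. Of the 8, 0 had a log2 difference above 0. The part of this difference in the Rhox5 level was not tested.

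Between the cell types, wild-type EpiSC against wild-type XEN cells, Rhox5 and Rhox6 were tested and their groups did not overlap, both lower in EpiSC, where 30.0% of genes were lower without overlap. The log2 differences, EpiSC minus XEN, were -1.93 (SE 0.98, edgeR adjusted p = 0.154) for Rhox5 and -6.43 (SE 3.48, adjusted p = 0.193) for Rhox6. So 0 of 2 passed, in a comparison where 30.8% of genes did, with 0 at an unadjusted p under 0.05 (44.6% of genes) and 0 with DESeq2. Fitting only the 4 wild-type libraries called both, with adjusted p = 0.0346 for Rhox5 and 0.00401 for Rhox6, where 15.7% of genes passed as lower. With no filter on low counts 3 passed as lower (Rhox5, Rhox6 and Rhox2f; 9.74% of genes), and with the replicate block 1 did (Rhox5; 18.2% of genes). The effect of the Xist deletion on Rhox5 was not shown to differ between the cell types (edgeR interaction, EpiSC minus XEN, -2.12, SE 1.32, adjusted p = 0.590); 0 of 2 members passed, where 0.0101% of genes did, with 0 at an unadjusted p under 0.05 (10.3% of genes) and 0 with DESeq2.

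The genes beside the cluster show how far the high levels reached along the chromosome. The list holds 20 genes from Lonrf3, at -1476.5 kb from the Rhox5 start, to C1galt1c1, at 825.9 kb, and Zbtb33 and Tmem255a lie within the span of the cluster. Summed, they were at 1050 and 939 CPM in untreated wild-type XEN, 1335, 1691 and 1749 CPM in dXist libraries, 886 and 947 CPM in treated wild-type libraries and 2293 and 1725 CPM in treated dXist libraries. The sum in dXist library 3 was thus near that in library 2, whereas the Rhox sums in these libraries were 150 and 1.72 CPM. A few genes weigh heavily in the neighbour sums, as Lamp2 at 683 and 335 CPM and Rpl39 at 204 and 645 CPM in libraries 2 and 3. Per gene, the median log2 ratio of 18 neighbours to the wild type was 0.14, 0.38 and 0.63 in dXist libraries 1 to 3. It was thus highest in library 3, and for 18 Rhox members the medians were 0.07, -0.11 and 4.25. These members were picked for reaching 10 counts in any library, 13 of them in dXist library 3, which favours a high median there. Lonrf3, a ring finger protein gene at the far edge of the list, was at 13.6 and 5.93 CPM in wild-type cells and at 46.2, 101 and 28.4 CPM in dXist libraries. Of 16 neighbours tested, 0 passed in dXist against wild type with edgeR, 5 had an unadjusted p under 0.05, all higher, and DESeq2 called 3. Over all genes these shares were 0.0217%, 10.7% and 2.59%. In treated against untreated wild type the same counts were 0, 0 and 0, and the shares over all genes 0.582%, 12.4% and 3.44%.

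**Figure D4:**
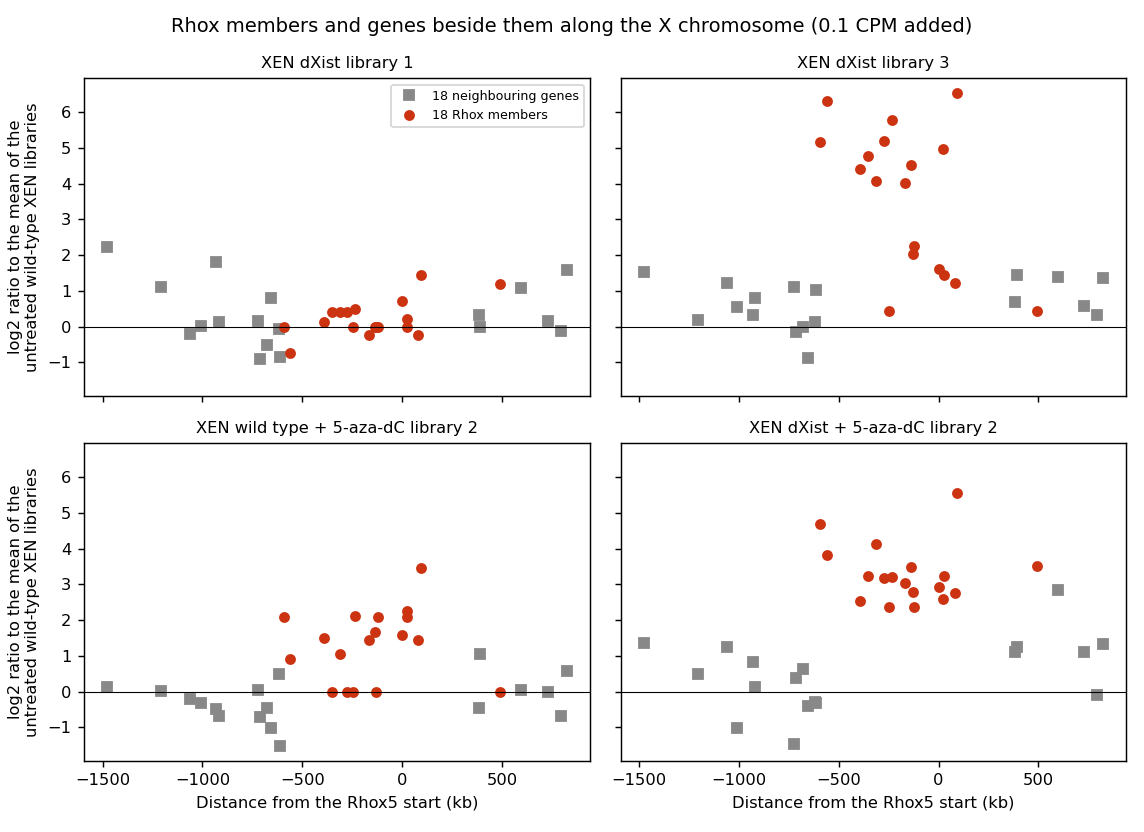
log2 ratio of a library to the mean of the untreated wild-type XEN libraries (vertical axes, 0.1 CPM added to both) against distance from the Rhox5 start in kb (horizontal axes), for 18 Rhox members (circles) and 18 neighbouring genes (squares) with at least 10 counts in a library, in 4 XEN libraries. In dXist library 3 Rhox members lie between 0.42 and 6.54 and neighbours between -0.88 and 1.53, whereas in dXist library 1 the members lie between -0.74 and 1.45.

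Within dXist library 3 the height varied along the cluster. With 0.1 CPM added, 16 of the 18 members were above a log2 ratio of 1 to the wild type, and 7 of 18 neighbours. Of the members, 13 reach the minimum of 10 counts in dXist library 3 and 2 in each untreated wild-type library. Their selection thus favoured a high ratio in dXist library 3, and the numbers are given as a description. In dXist libraries 1 and 2 there were 2 and 1 members and 5 and 4 neighbours above 1. In treated dXist library 2 all 18 members were above 1 (lowest 2.37, highest 5.56), and 7 of 18 neighbours. All 18 members reach the minimum of 10 counts in this library. Their selection thus favoured a ratio above 1 there, and the number is given as a description. In treated wild-type libraries 1 and 2, 13 and 12 members were above 1, and 1 neighbour in each. These libraries are shallow, so with 0.1 CPM added 1 count sufficed for Rhox2-ps and Rhox7-ps1 in library 1 and Rhox2d in library 2. The neighbours above 1, Slc25a43 in library 1 and Tmem255a in library 2, were at 0.166 and 0.108 CPM. How many genes pass there thus depends on depth. In treated dXist library 1 there were 7 members and 10 neighbours above 1, and the medians were 0.69 and 1.27.

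Genes of the silencing machinery were read as a list of 17. In dXist against wild-type XEN cells 0 of the 17 passed with edgeR, 1 had an unadjusted p under 0.05 (Atf7ip, lower, against 10.7% of genes) and DESeq2 called 0 (2.59% of genes). The median log2 difference of the list was -0.44 (all genes 0.000988), and 6 of the 17 were above 0. Dnmt3b, a de novo DNA methyltransferase that is known to act on the Rhox cluster in embryos, was at 165 and 206 CPM in untreated wild-type XEN and at 29.7, 29.6 and 168 CPM in dXist libraries (log2 difference -1.28, SE 0.68, edgeR adjusted p = 0.531). Dnmt3a, the other de novo enzyme of the list and chosen after its values were seen, was at 62.6 and 71.2 CPM in wild-type cells and at 64.2, 140 and 24.9 CPM in dXist libraries. In dXist library 3, which has the highest Rhox sum, Dnmt3b was thus within the wild-type range and Dnmt3a at its lowest of the 13 libraries. Dnmt1, also chosen after its values were seen, was at 241 and 285 CPM in wild-type cells. In dXist libraries it was at 114, 162 and 196 CPM. In treated libraries Dnmt3b was at 96.2 and 97.2 CPM in wild-type cells and 64.4 and 58.4 CPM in dXist. Atf7ip, a partner of the histone methyltransferase Setdb1, was at 80.8 and 61.2 CPM in wild-type cells and 23.7, 23.8 and 46.4 CPM in dXist libraries. The part of these genes in the Rhox levels was not tested.

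Germline genes outside the cluster that are known to be silenced by promoter methylation gave a list of 18. Their sum was 7.94 and 4.21 CPM in untreated wild-type XEN, 9.53, 13.1 and 48.3 CPM in dXist libraries, 25.3 and 23.9 CPM in treated wild-type libraries and 30.8 and 83.5 CPM in treated dXist libraries. The same libraries were highest as for the Rhox sum, but by different shares of the list. In treated dXist library 2, 11 of the 18 were at their highest and 12 were at 1 CPM or more, among them Taf7l at 36.0 CPM and Dazl at 10.9 CPM. In dXist library 3, 3 of the 18 were at their highest, and most of the sum came from Syce1 at 30.2 CPM and Dpep3 at 8.59 CPM. Taf7l and Dazl were at 0.238 and 0.0340 CPM there. Of 16 tested, 0 passed in treated against untreated wild type with edgeR, 9 had an unadjusted p under 0.05 and DESeq2 called 4 (0.582%, 12.4% and 3.44% of all genes). Of the 9, 8 were higher and 1 lower in treated cells, Brdt (log2 difference -1.45, SE 0.58, edgeR adjusted p = 0.355), chosen after its values were seen, and the median log2 difference was 4.32 (all genes -0.04). In treated against untreated dXist the counts were 0, 8 (all higher) and 6, against 0.0761%, 26.8% and 13.4% of all genes, with a median of 3.51 (all genes -0.02). In dXist against wild type they were 0, 3 (all higher) and 0, against 0.0217%, 10.7% and 2.59% of all genes, with a median of 1.43 (all genes 0.000988).

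Markers of cells known to express Rhox genes were read in the same libraries. In dXist library 3 the 8 germ cell markers summed to 1.53 CPM, within the 0.606 to 6.66 CPM of the other untreated XEN libraries, and 5 of the 8, among them Ddx4, were at 0. Ddx4, Dazl, Nanos3, Dppa3 and Sycp3 were at 0 in wild-type library 2 as well. Most of the sum in dXist library 3 was Piwil2 at 1.22 CPM, against 0.771 and 0.351 CPM in the wild type. Its levels in dXist libraries 1 and 2 were 2.63 and 5.09 CPM. In treated dXist library 2 they summed to 26.5 CPM, against 9.08 to 9.79 CPM in the other treated libraries, with 5 of the 8 also in the germline list. Their part in the Rhox level of that library was not tested. The 8 trophoblast markers with a row summed to 5.50 CPM in dXist library 3 and 2.04 to 8.71 CPM in the other XEN libraries, and 5 of them were at 0 in dXist library 3. Of these, Esrrb, Tfap2c and Hand1 were also at 0 in both wild-type XEN libraries. Gata3 made up most of the sum in dXist library 3, at 4.96 CPM, its highest of the 13 libraries. It was at 4.91 and 4.11 CPM in dXist libraries 1 and 2 and at 0.603 and 2.93 CPM in the wild type. Sertoli cell markers summed to 12.6 CPM in dXist library 3 and 13.1 CPM in treated dXist library 2, against 10.2 and 11.2 CPM in dXist libraries 1 and 2, 20.8 to 22.9 CPM in the other treated libraries and 51.4 and 26.3 CPM in the wild type. All 3 untreated dXist libraries were thus below the wild type, with library 3 the highest of them.

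Other X-linked genes of reproductive tissues were highest in other libraries. Of 18 with a row, 0 were highest in dXist library 3 and 3 in treated dXist library 2. Their sum was 303 and 176 CPM in untreated wild-type XEN and 395, 403 and 267 CPM in dXist libraries, and 0.921 to 2.43 CPM in EpiSC. Of 14 tested, 0 passed in dXist against wild-type XEN cells with edgeR, 2 had an unadjusted p under 0.05 and DESeq2 called 2, against the same shares over all genes as for the neighbours. In wild-type EpiSC against XEN cells 8 of 13 tested were lower (edgeR; 14.1% of all genes were lower), all of them members of the Xlr family, whose copies share sequence.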

How the data were processed

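Bulk RNA of 13 mouse libraries in 6 groups was analysed from 1 table of raw read counts per gene that the authors deposited. Reads were checked with FastQC, aligned with STAR 2.7.9a to GRCm38/mm10 and counted with featureCounts 2.0.1, per the submitters' processing notes. Not given in the sources used here are the strand setting, the annotation release and the treatment of reads that fit several genes. Per the labels' protocols NEBNext Ultra and TruSeq stranded kits were used without a statement of which library had which. Identifiers were matched to GENCODE vM21 (38240 of 38377, 99.64%).

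Counts were tested as deposited with edgeR 4.0.16 (R 4.3.3; quasi-likelihood test with robust estimates, TMM scaling, filterByExpr, Benjamini-Hochberg adjustment over all genes tested, threshold 0.05). The XEN comparisons were fitted over 9 XEN libraries, the EpiSC comparison over 4, and comparisons between cell types over 9 untreated libraries. The SE is the log2 difference divided by the square root of F. Levels are CPM with TMM factors of all 13 libraries. DESeq2 1.42.0 and other settings served as alternatives, and the edgeR steps were tested on simulated data. Library totals of 5848454 to 35247432 counts make 3 counts worth 0.0815 to 0.499 CPM. This floor covers counting error only.

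The family, the gene lists and the tests were chosen with earlier results of these data known. Members with at least 10 counts in a library were described singly. Genes of the other lists were mostly named from the 4 with the smallest adjusted p in a comparison. Rpl39, Dnmt1 and Dppa3 are outside that rule and were named for their values. Replicate numbers were checked as a pairing: deviations of same-numbered libraries correlated at -0.13 to 0.12 among XEN groups, so they were not treated as pairs. In EpiSC the correlation was 0.77, but with only 2 groups of 2, and the number follows the library type.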

Additional observations from a re-analysis of the deposited data

Results flagged for a closer look

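For Rhox6, Rhox2f and Rhox2b both treated wild-type XEN libraries were above the mean of their untreated group, and both treated dXist libraries were below the mean of theirs. The interaction test on the log2 scale, dXist minus wild type, gave -4.01 for Rhox6 (edgeR adjusted p = 0.714), -4.35 for Rhox2f (adjusted p = 0.676) and -4.12 for Rhox2b (adjusted p = 0.725), so none of these differences passed. The untreated dXist mean rests on library 3: for Rhox6 and Rhox2f both treated dXist libraries lay above untreated dXist libraries 1 and 2. Without library 3 the interaction for Rhox6 was 0.31 and its difference between treated and untreated dXist cells 2.62.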

How the results depend on the processing

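The number of Rhox members called was 0 in all 7 comparisons. It stayed at 0 in each with RLE scaling, with library type as a term, and with the copies summed within each of Rhox2, Rhox3, Rhox4 and Rhox7. It became 9 with no filter on low counts and 1 with DESeq2 for XEN dXist against wild type, and 2 both with no filter and with only the groups compared for treated against untreated wild type. For the treatment by genotype interaction it became 2 with no filter. For EpiSC against XEN wild type it became 3 with no filter, 2 with only the groups compared and 1 with the replicate block, and for EpiSC dXist against wild type it became 1 with the replicate block. With no filter more genes are tested, and with only the groups compared fewer samples enter; the cause of the changes was not tested.

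The replicate block reversed the log2 difference in dXist against wild type for Rhox2f (-0.20), Rhox5 (-0.27) and Rhox6 (-0.45), in treated against untreated dXist for Rhox6 (2.24) and Rhox9 (4.36), and in the interaction for Rhox5 (0.89). In these fits the block leaves dXist library 3 without a same-numbered partner. Leaving out 1 library gave ranges of -0.14 to 5.38 for Rhox2f, -0.15 to 1.24 for Rhox5 and -0.82 to 5.01 for Rhox6 in dXist against wild type. It gave -3.35 to 2.62 for Rhox6 and -3.20 to 4.42 for Rhox9 in treated against untreated dXist, and -1.43 to 0.66 for Rhox5 and -5.63 to 0.31 for Rhox6 in the interaction. Where an arm was left with 1 library, that library is assumed to vary like the other groups. Of the single-gene values with an adjusted p under an alternative, 198 kept direction and side of the threshold, 17 passed the threshold and 16 changed sign. For 6 others DESeq2 gave no adjusted p, and they kept their direction. The setting with only the groups compared is the main design for the interactions and for EpiSC dXist against wild type. Summing the Rhox2 copies gave a log2 difference of 5.31 (SE 2.17, edgeR adjusted p = 0.431) in dXist against wild type. Depth limits the treated wild-type libraries most, where 3 counts are worth 0.499 and 0.323 CPM.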
